A study of Mus musculus with 3 samples.

Results

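SR proteins and heterogeneous nuclear ribonucleoproteins (hnRNPs) are the main sequence-specific RNA-binding proteins that decide how pre-mRNA is spliced. SR proteins carry a domain rich in arginine and serine, bind exonic enhancers and help the spliceosome to recognise an exon. hnRNP proteins coat nascent transcripts and often silence the exons they bind, and a T cell uses both families when it changes isoforms such as those of Ptprc (CD45). Many of these genes also make transcripts with a premature stop codon, which nonsense-mediated decay (NMD) degrades, and in mammals this is a known way in which SR and hnRNP proteins limit their own levels.

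Members were the genes whose symbol begins with Srsf and a digit, or with Hnrnp, and which have at least 1 annotated protein_coding transcript. The rule found 31 genes, 11 SR and 20 hnRNP, of 21901 genes with such a transcript. It used names only and no measured value. Another 2 matching symbols, Hnrnpa1l2-ps and Hnrnpa1l2-ps2, are processed pseudogenes with at most 0.22 TPM (transcript abundance scaled for length and depth) in any library and were not members.

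The RNA was polyadenylated RNA of regulatory T cells, the Foxp3-expressing CD4 T cells that restrain immune responses. Per the labels, these were primary cells from a male adult mouse of 4 months, a cross of Foxp3CreERT2 with Rosa26YFP, and the cell of origin is given as a bone marrow hematopoietic cell. Foxp3CreERT2 drives a tamoxifen-inducible Cre recombinase from the Foxp3 locus and Rosa26YFP is a reporter allele. No treatment is given in the labels. The 3 libraries are technical replicates 1, 2 and 3 of biological replicate 1 and form 1 group, so the data hold no comparison between conditions, and every spread and p-value below measures differences between these 3 libraries only. The labels call them technical, and whether they share a pool of RNA or of sorted cells is not stated. Library depth was even, at 9299054, 9188612 and 8284381 expected counts for libraries 1, 2 and 3.

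Regulatory T cell markers were present throughout, with 6 of 6 detected and Foxp3 at 27.6, 43.7 and 47.1 TPM in libraries 1, 2 and 3. These 6 markers summed to 2920, 3156 and 2882 TPM. All 6 B cell markers were detected as well, and their sum was 3654, 2802 and 3485 TPM, above that of the regulatory T cell markers in libraries 1 and 3. The levels below are those of whole libraries, and the part of each cell type in them was not measured. Library 2 stood apart in 2 other lists, as the 5 erythroid markers summed to 1681, 9.02 and 1495 TPM and the 4 plasma cell markers to 1977, 206.7 and 1382 TPM. Of the neutrophil list 0 of 4 markers were detected, with sums of 34.0, 0 and 2.59 TPM, and Elane was at 0 in every library. In such bulk libraries, fewer cells of a type and less RNA per cell cannot be told apart.

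The annotation gives some members an extra exon that carries an early stop codon. Of 31 members, 19 have a transcript that GENCODE M21 annotates as nonsense_mediated_decay, 9 SR and 10 hnRNP genes. In 8 of them, the most abundant such transcript has its stop codon inside an exon that the most abundant protein_coding transcript skips, and 6 of the 8 are SR genes (Srsf3, Srsf7, Srsf6, Srsf4, Srsf9 and Srsf11) against 2 hnRNP genes (Hnrnpll and Hnrnpl). Among all 3114 detected genes with an annotated NMD transcript, 26.2% have this structure. The exon starts of the 2 members with 10% or more of their TPM in this class are shown with those of Srsf6 and Hnrnpll, read 5′ to 3′ on the strand of the gene from the first base of the exon to the stop codon, which is in capitals (GENCODE M21 transcripts, build mm10).

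Srsf3-201, chr17:29039454-29039487, plus strand: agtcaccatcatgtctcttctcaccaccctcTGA

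Srsf7-203, chr17:80205054-80205081, minus strand: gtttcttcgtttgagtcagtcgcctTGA

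Srsf6-201, chr2:162932815-162932966, plus strand: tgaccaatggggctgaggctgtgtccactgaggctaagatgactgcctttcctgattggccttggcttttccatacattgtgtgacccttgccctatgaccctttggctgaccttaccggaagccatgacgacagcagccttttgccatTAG

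Hnrnpll-203, chr17:80044976-80045022, minus strand: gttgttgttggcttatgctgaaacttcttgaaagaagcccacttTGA

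The Srsf3 exon spans 456 bases inside an intron of 2150 bases, and the stop codon is complete 34 bases into it. The Srsf7 exon is of much the same size, 460 bases inside an intron of 874 bases, with the stop complete after 28 bases. The Srsf6 exon holds 268 bases and the Hnrnpll exon 83 bases. In 5 other members (Srsf2, Hnrnpd, Hnrnpa1, Hnrnpa2b1 and Hnrnph3) the leading NMD transcript has the same stop codon as the coding one, as in 4.1% of the 3114 genes. In these transcripts an exon junction follows the stop, with the last junction 113 bases after it in Srsf2, 137 in Hnrnpd and 90 in Hnrnpa1. The remaining 6 had neither structure.

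The first question was how high the RNA of each factor stood in these libraries. All 31 members reached 1 TPM in every library, where 46.1% of the 21901 genes with a protein_coding transcript did. The median member stood at 107 TPM, against 20.1 TPM for the 10107 detected genes. Summed over genes, the hnRNP family reached 5197, 5638 and 5728 TPM in libraries 1, 2 and 3 (5521 ± 284, SD, n = 3) and the SR family 1799, 1930 and 1997 TPM (1909 ± 100.7). Together the members took 0.924% ± 0.0197 of all expected counts. TPM in library 1 was lower across all genes, with a median log2 ratio of library 1 to the mean of libraries 2 and 3 of -0.31 over 10867 genes with a protein_coding transcript. The median ratio of the members was -0.16, so the median member was less low in library 1 than the median gene.

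**Figure D1:**
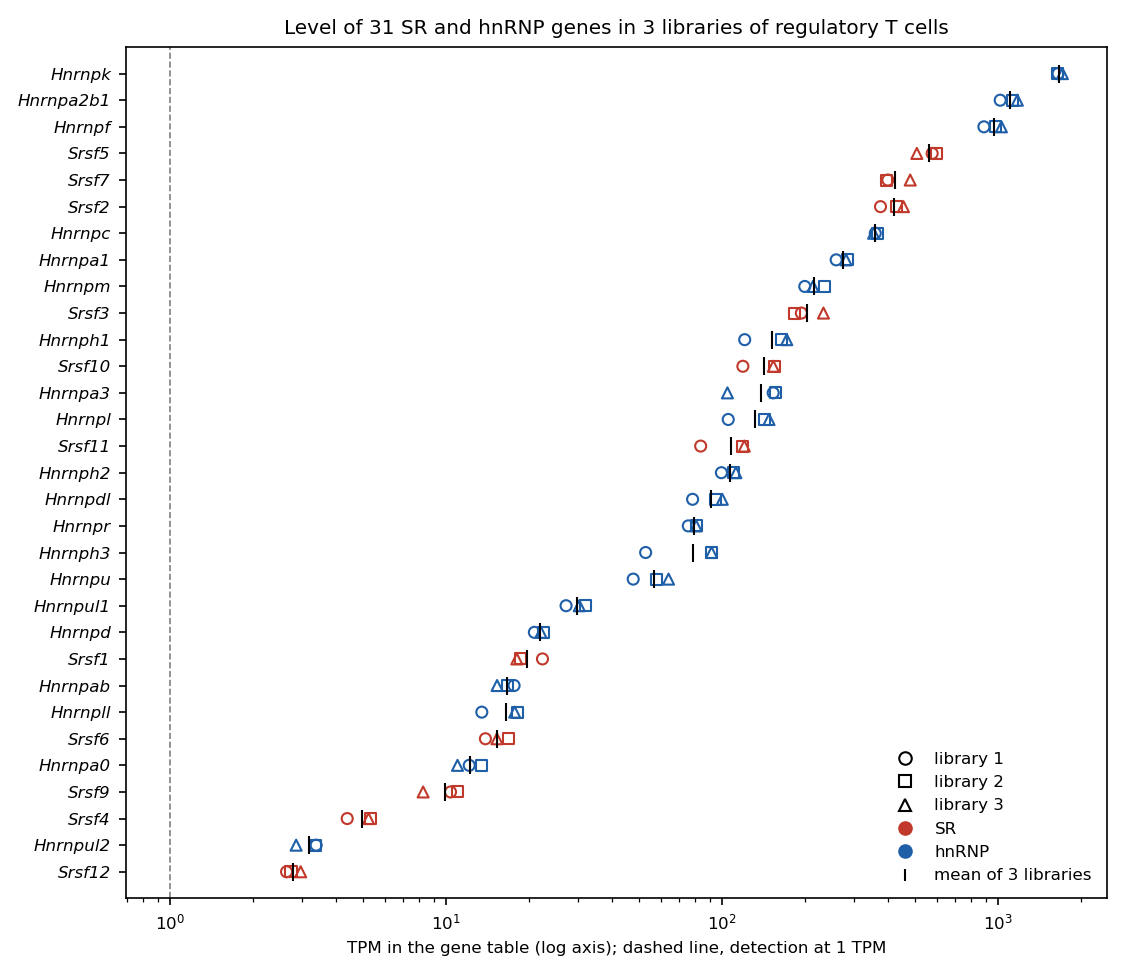
Level of each of the 31 members in TPM (log axis) in libraries 1, 2 and 3 (circles, squares and triangles), with the mean as a bar; SR genes are red and hnRNP genes blue. The members run from Srsf12 at 2.78 TPM to Hnrnpk at 1666 TPM, and the libraries of each gene lie close together.

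Among the hnRNP genes, Hnrnpk, which binds cytosine-rich RNA, was the highest member with 1648, 1640.5 and 1709 TPM in libraries 1, 2 and 3. Hnrnpa2b1, an A/B-type protein that also sorts microRNAs, followed at 1017, 1131 and 1173 TPM. Hnrnpf, which binds runs of guanine, had 888, 978 and 1027 TPM. The ranges of Hnrnpa2b1 and Hnrnpf overlapped, while Hnrnpk stood above both in every library. Hnrnpc, which binds uridine tracts and packages nascent RNA, had nearly equal levels of 359, 366 and 354 TPM, although its counts scaled to library totals differed, at 4458, 3629 and 3650. Hnrnpa1, the classic silencer of exons, had 259, 285 and 281 TPM, and Hnrnpm 199, 235 and 213 TPM. Next came Hnrnph1, a relative of Hnrnpf, with 121, 163 and 171 TPM, lowest in library 1. Hnrnpa3, an A/B-type protein close to Hnrnpa2b1, went the other way with 153, 157 and 104 TPM, lowest in library 3.

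The SR family was led by Srsf5 with 577, 598 and 507 TPM. Srsf7 and Srsf3, which also link splicing to nuclear export of mRNA, stood at 398, 393 and 480.1 TPM and at 194, 184 and 233 TPM, both highest in library 3. Srsf2, an SR protein that stays in the nucleus, had 375, 429 and 454 TPM, so Srsf7 and Srsf2 could not be ordered. Srsf10, which represses splicing when dephosphorylated, had 119, 154 and 153 TPM, and Srsf11 had 83.6, 119 and 120.3 TPM, each lowest in library 1. Srsf1, the founding member of the family, was far lower at 22.3, 18.5 and 18.03 TPM. Srsf12 was the lowest of the 31 members at 2.64, 2.74 and 2.97 TPM, close to the hnRNP gene Hnrnpul2 at 3.38, 3.35 and 2.86 TPM. Hnrnpll, which excludes variable exons of Ptprc in T cells, had 13.5, 18.2 and 17.7 TPM. Its paralogue Hnrnpl had 105, 143 and 148 TPM, so the libraries of these paralogues did not overlap. Along the order by mean TPM, neighbouring members overlapped in range in 16 of 30 pairs and did not in 14.

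The next question was which kinds of transcript these levels consisted of. The first transcript table gives each transcript as a percent of the TPM of its gene, and the percents were summed by annotated class. The SR family held 49.0% ± 5.45 of its summed TPM in protein_coding transcripts, 16.6% ± 0.699 in NMD transcripts and 27.1% ± 5.69 in retained_intron transcripts (SD, n = 3). In the hnRNP family the same classes held 74.3% ± 1.57, 3.68% ± 0.412 and 19.3% ± 1.34. In all 3 libraries the SR share of NMD transcripts lay above the hnRNP share, at 17.4, 16.4 and 16.0% against 3.27, 4.10 and 3.66%. These family shares weigh each gene by its TPM, and Srsf2-204, Srsf7-203 and Srsf3-201 alone had means of 163, 78.1 and 60.6 TPM. Counted by gene, the families were alike. The NMD class reached 10% in every library in 4 of 9 SR and 5 of 10 hnRNP genes with such a transcript, where 23.3% of 3114 detected genes did. No test was made, because the error of assigning shared reads to transcripts is not in the tables. The median member had 66.5% of its TPM in protein_coding transcripts, against 86.5% for all detected genes. Members also have more annotated transcripts, a median of 7 against 5.

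**Figure D2:**
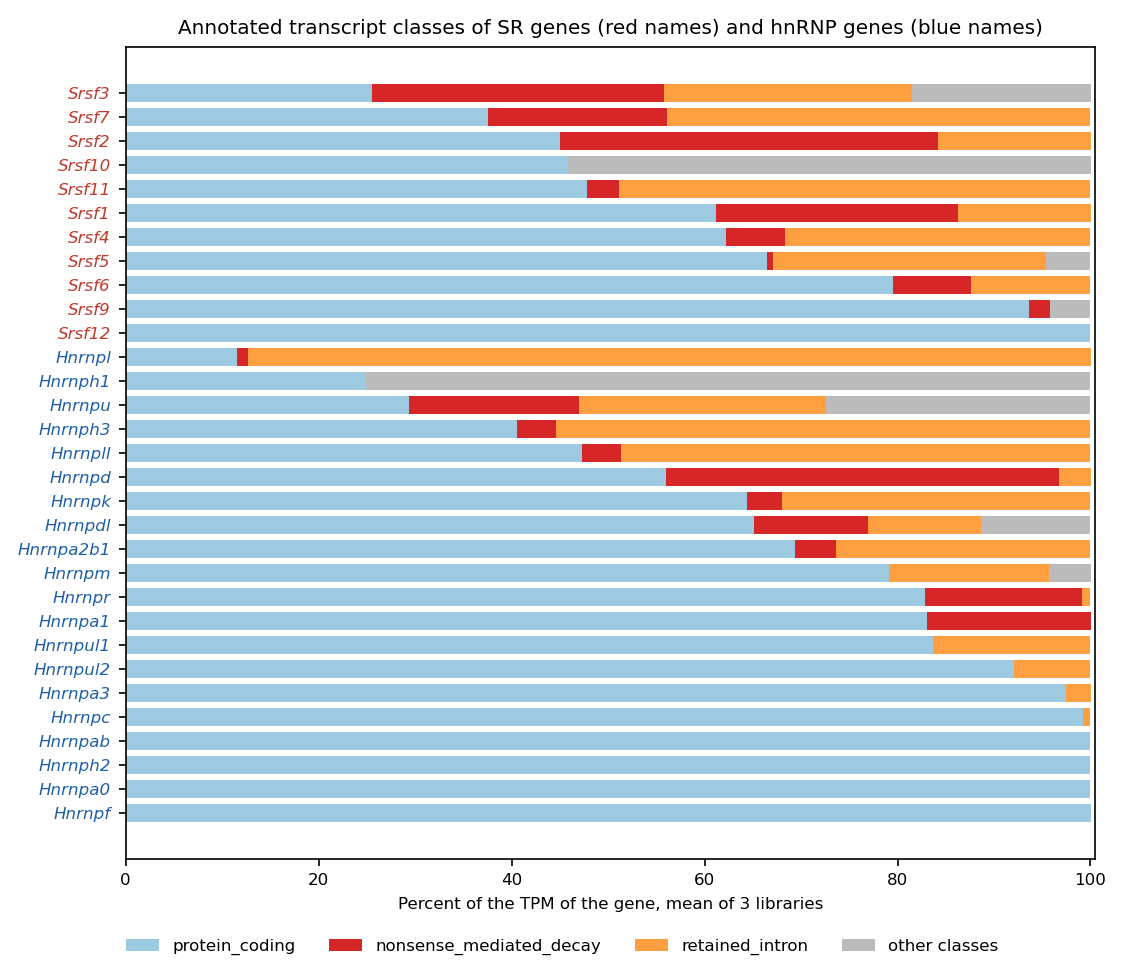
Mean percent of the TPM of each gene over 3 libraries in protein_coding (light blue), nonsense_mediated_decay (red), retained_intron (orange) and other transcripts (grey), with SR genes above and hnRNP genes below. Red bars are wide in Srsf2, Srsf3, Srsf1 and Hnrnpd, and orange bars cover most of Hnrnpl and Hnrnph3.

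The NMD class reached 10% in every library in 9 of the 19 members that have such a transcript, where 23.3% of 3114 detected genes with one did. The 4 SR genes among them were Srsf1, Srsf2, Srsf3 and Srsf7, and the 5 hnRNP genes were Hnrnpa1, Hnrnpd, Hnrnpdl, Hnrnpr and Hnrnpu. The median share over the 19 members was 8.10%, against 4.23% for all such genes. Within libraries 1, 2 and 3 the members' median was 7.69, 14.7 and 7.00%. The median of the means over libraries 1 and 3, leaving out library 2, was 4.46%. With shares taken from expected counts in place of TPM, 5 of the 19 members reached 10%. The 23.3% of all genes is on the TPM scale and no such share is given for counts, so an excess in members by counts was not shown.

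Hnrnpd, also called AUF1, binds AU-rich elements of unstable mRNAs and had NMD shares of 36.3, 42.1 and 43.6% in libraries 1, 2 and 3. The share rests on 54.5, 61.0 and 55.9 expected counts of 242, 209 and 186. In the second transcript table it was higher, at 51.2, 63.9 and 67.7%, and by expected counts it was 27.3%, below Srsf3 at 34.3%. Srsf2 overlapped with it at 44.4, 34.1 and 39.2%, nearly all of it from Srsf2-204, and with 34.9, 27.0 and 30.6% in the second table. Its coding transcript Srsf2-201 took 44.98% ± 3.82 of the TPM, and was lower than the NMD transcript in library 1 and higher in libraries 2 and 3. By expected counts the NMD class of Srsf2 was much smaller, with 597, 448 and 489 of 3463, 3752 and 3403. Its protein_coding transcripts held 2192, 2503 and 2124 counts, more than the NMD class in every library. Opposite-strand genes cover 25.3% of the exonic bases of Srsf2, and no source used here states whether the counting was stranded.

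For Srsf3, the transcript with the 456-base exon shown above, Srsf3-201, was the most abundant one, at 31.1, 35.3 and 24.4% of the TPM of the gene. The only protein_coding transcript took 27.5, 23.1 and 26.1%. The NMD transcript was higher in libraries 1 and 2 and lower in library 3. Srsf1 had 20.9, 22.7 and 31.6% in NMD transcripts, resting on 27.2, 20.8 and 25.5 expected counts. Srsf7 had 18.6, 21.4 and 15.8%, from the transcript with the 460-base exon, and 1086, 1052 and 856 expected counts were assigned to it. The Srsf7 share thus rests on far more reads than that of Srsf1. Hnrnpu, a nuclear scaffold protein, had 15.4, 18.6 and 18.8% in the first table and 11.9, 9.02 and 7.83% in the second, where it stayed under 10% in libraries 2 and 3.

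The values of low genes show how far such shares can move. Srsf4 had 0, 18.3 and 0% in NMD transcripts from 76.1, 79.5 and 79.9 expected counts, and Srsf6 7.69, 16.6 and 0%. Neither met the 10% mark in every library. Srsf5, the highest SR gene, had only 0.63% ± 0.217.

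**Figure D3:**
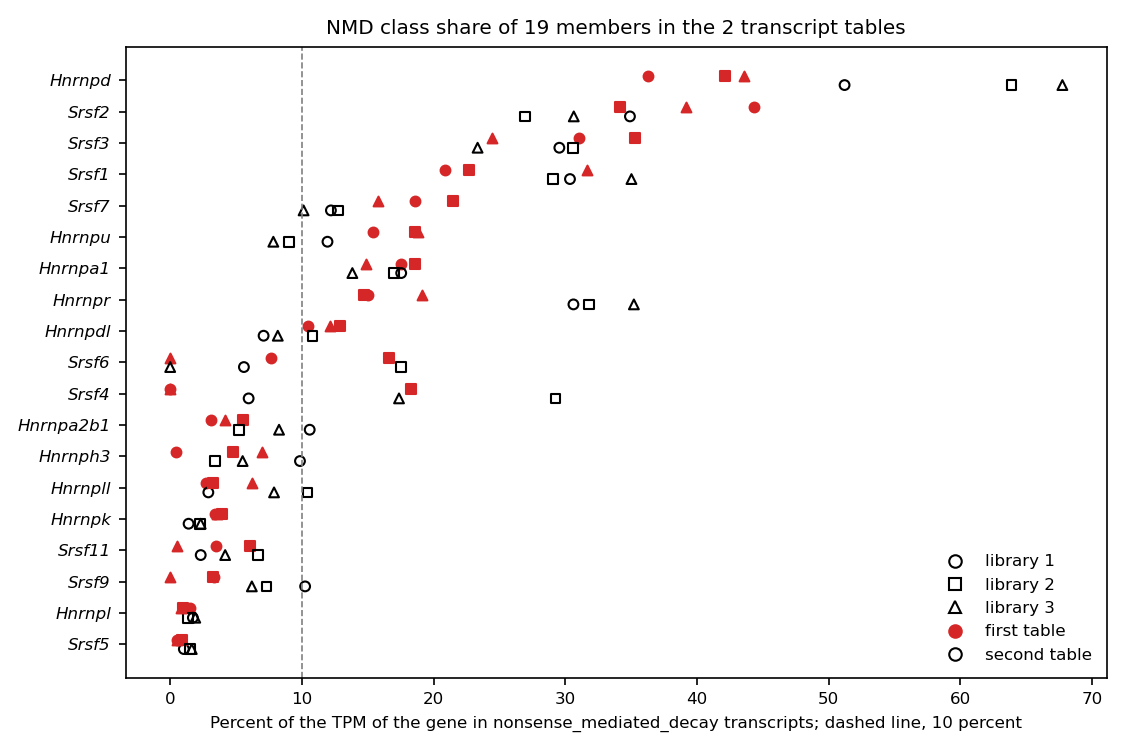
Percent of the TPM of each gene in nonsense_mediated_decay transcripts for the 19 members that have one, in the first transcript table (red) and the second (black, open), with a marker shape per library. Srsf2, Srsf3, Srsf1, Srsf7, Hnrnpa1, Hnrnpd and Hnrnpr lie at or right of the 10% line in every library of both tables. Hnrnpu, Hnrnpdl, Srsf4, Srsf6, Srsf9, Hnrnpa2b1 and Hnrnpll have points on both sides of it.

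Retained_intron transcripts reached 10% in every library in 14 of 22 members that have one, where 48.0% of 6306 detected genes with one did. The median share was 21.1% for members and 14.5% for all such genes. Hnrnpl, which binds CA repeats, was at the top with 84.4, 89.6 and 88.0%, and a single retained_intron transcript, Hnrnpl-210, took 49.2% ± 2.03 of the TPM of the gene. Hnrnph3 had 49.2, 59.5 and 57.5%, Srsf11 49.5, 50.0 and 47.0%, and Hnrnpll 46.7, 43.6 and 55.7%. Thus Hnrnpl and Hnrnpll, paralogues that both regulate Ptprc, both had high shares, and the second table gave 91.8 and 56.5% for them. Srsf7 had 36.6, 44.0 and 50.9% in retained_intron transcripts, more than in its NMD transcript, and Hnrnpk, the most abundant member, had 31.8, 30.2 and 33.7%. Srsf5 differed more between libraries, with 19.7, 23.6 and 41.6%, highest in library 3. By expected counts, the mean share of 15 of the 22 members moved by its SD or more, and that of 7 did not. Hnrnpk then had 2360, 2056 and 1985 retained_intron counts of 17484, 15760 and 14092, a lower share. Srsf5 went the other way, with 2359, 2497 and 3371 of 7266, 6555 and 5693. The 48.0% of all genes is on the TPM scale. No such share is given for counts, so an excess in members by counts was not shown.

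A transcript outside the protein_coding class was the most abundant one in 6 of 31 members, where 13.4% of 10107 detected genes had this. The transcripts were the NMD transcript of Srsf3, retained_intron transcripts of Srsf7 (Srsf7-207, 28.7% ± 6.27), Hnrnpl and Hnrnph3 (Hnrnph3-206, 28.2% ± 5.52), and processed_transcript entries of Hnrnph1 (Hnrnph1-212) and Srsf10 (Srsf10-207). These leads are by mean percent. Srsf10-207 had 30.85, 31.28 and 22.97%, beside 24.84, 26.48 and 31.28% for the coding Srsf10-204. In library 1 the coding Srsf7-208 (23.22%) was above Srsf7-207 (22.91%). Hnrnph3-206 had 22.68, 28.27 and 33.72%, beside 26.48, 31.2 and 23.78% for another retained_intron transcript, Hnrnph3-205. The coding Hnrnph3-203 had 23.99, 21.53 and 21.68%, so Hnrnph3-206 was above both only in library 3. By expected counts, protein_coding transcripts held 1334, 1331 and 1472 of the 1613, 1677 and 1720 counts of Srsf10. In Hnrnph3 they held 280, 248 and 221 counts, more than the 114, 204 and 184 of retained_intron transcripts. In the second table, NMD transcripts also led in Hnrnpd and Hnrnpr. A processed_transcript is a transcript for which GENCODE gives no open reading frame.

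The libraries were then compared with one another. For each of 13071 genes with 30 or more expected counts, a chi-square test of homogeneity set the counts against the scaled library totals, with Benjamini-Hochberg adjustment over all genes. Counts differed beyond counting error in 20 of 31 members at an adjusted p below 0.05, where 54.5% of all genes tested did. The sizes were small. No member differed by 2-fold or more, against 8.79% of all genes tested, and the median ratio of highest to lowest library was 1.18 in members and 1.34 in all genes tested with a protein_coding transcript. The genes compared were not matched for level. Members had a median of 107 TPM against 20.1 TPM for detected genes, and counting error widens such ratios more in low genes.

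**Figure D4:**
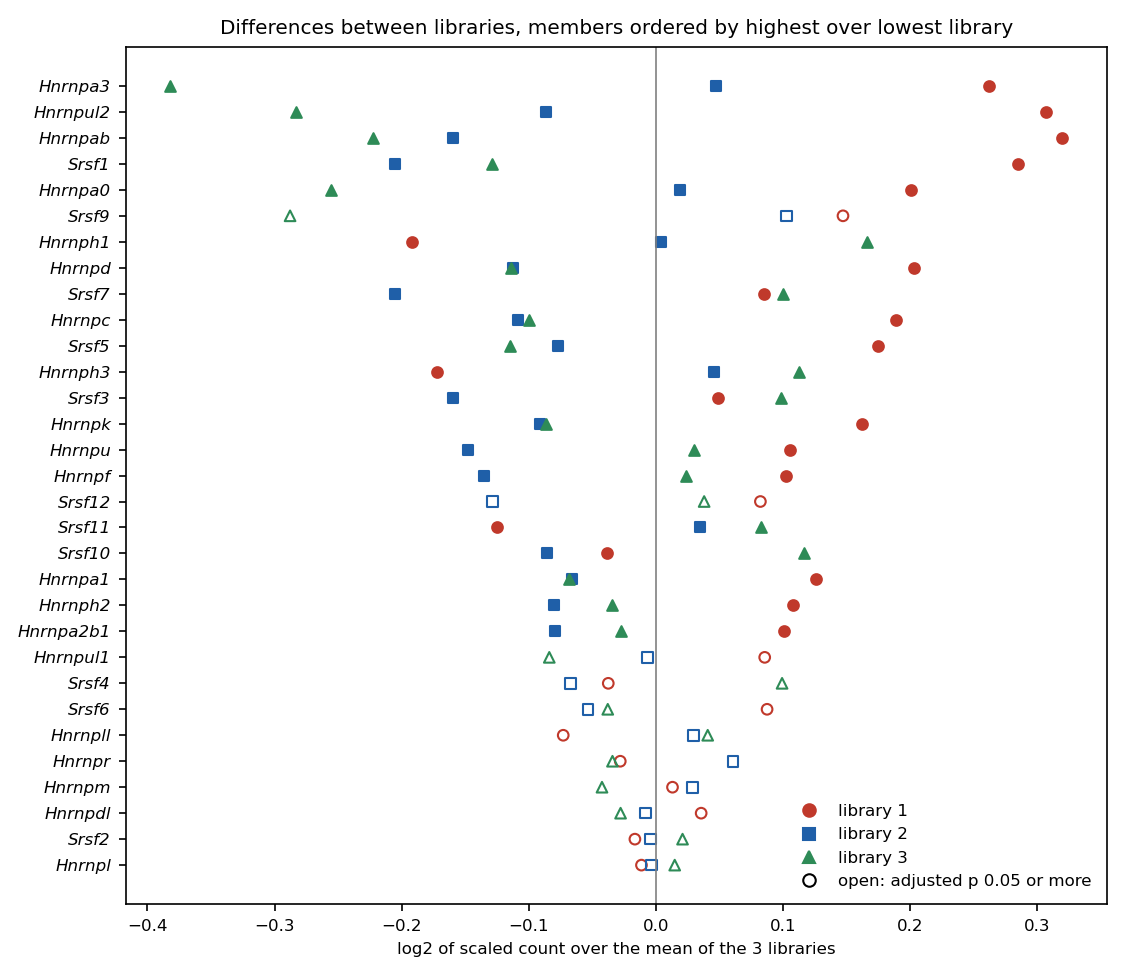
Scaled count of each member in libraries 1 (red circles), 2 (blue squares) and 3 (green triangles) as log2 of its ratio to the mean of the 3 libraries, ordered from the largest ratio to the smallest. Filled symbols mark the 20 members past the adjusted p of 0.05; red circles lie furthest right in 14 of them.

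With these scaled totals, Hnrnpa3 varied most, at scaled counts of 2346, 2021 and 1501 in libraries 1, 2 and 3, a ratio of 1.56 (adjusted p = 4.25e-38). Hnrnpul2, a relative of the scaffold protein Hnrnpu, had 133, 102 and 88.7 (ratio 1.505, adjusted p = 0.0175), and Hnrnpab 295, 212 and 203 (ratio 1.46, adjusted p = 6.86e-05). Library 1 was the highest for all of these in scaled counts. The same order of library 1 over the others held for Srsf1 with 499, 356 and 375 (ratio 1.40, adjusted p = 1.5e-06) and Hnrnpa0 with 248, 218 and 180.5 (ratio 1.37, adjusted p = 0.0138). Srsf9, at 72.8, 70.5 and 53.8, had the next largest ratio, 1.35, and did not pass (adjusted p = 0.28). At the other end, Hnrnpl and Srsf2 had ratios of 1.02 and 1.03 and did not pass (adjusted p = 0.941 and 0.621). With totals scaled within bins of gene length, however, both passed the same chi-square test, at ratios of 1.28 and 1.23 (adjusted p = 1.3e-06 and 2.17e-17). Under that scaling 5 members passed that had not before, and 2 no longer did.

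By scaled counts, 14 of the 20 members that differed were highest in library 1, 0 in library 2 and 6 in library 3, where library 1 was highest in 44.5%, library 2 in 24.9% and library 3 in 30.6% of all genes that differed. By TPM, a scale added here after seeing the data and lower in library 1 across all genes, 3 of the same 20 members were highest in library 1, 7 in library 2 and 10 in library 3, beside 25.2, 38.7 and 36.1% of all genes that differed. The library with the highest value was thus the same on both scales for 8 of the 20 and another for 12. Hnrnpf is an example, with scaled counts of 13226, 11218 and 12524 and 888, 978 and 1027 TPM in libraries 1, 2 and 3. Relative to the median of all genes, the median member was higher in library 1 on both scales, at log2 ratios of 0.13 for members against -0.00 for all genes in scaled counts and -0.16 against -0.31 in TPM. Without library 1, only 7 members differed (Hnrnpa3, Hnrnpf, Hnrnph1, Hnrnpu, Srsf10, Srsf3 and Srsf7), where 17.2% of all genes tested did. Library 2 is the library with low erythroid and plasma cell markers, and the part of those cells in these differences was not tested.

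Finally, the M21 expected counts were set beside a second gene table that holds whole-number counts for the older GENCODE M4 annotation of the same libraries. Each was turned into CPM, a count relative to the depth of its library, and centred on the median ratio of shared genes. Of the 29 members at 1 CPM or more in both tables, 8 had M4 counts more than 2-fold below the expected counts in every library, where 12.6% of 10091 genes did, and 0 were more than 2-fold above. They were Srsf1, Srsf2, Srsf3, Srsf10, Hnrnpf, Hnrnpl, Hnrnpul1 and Hnrnpul2. The median log2 ratio of M4 to expected counts was -0.72 in members and -0.00 in all genes compared.

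Srsf2 was the extreme case, with 66, 55 and 47 M4 counts in libraries 1, 2 and 3 beside 3463, 3752 and 3403 expected counts (log2 ratio -6.27). Hnrnpf had 2115, 1735 and 1975 M4 counts beside 13087, 11926 and 11865 expected counts (log2 ratio -2.94), and Srsf1 122, 76 and 89 beside 494, 378 and 355 (log2 ratio -2.38). In the M21 annotation, genes on the opposite strand cover 26.5% of the exonic bases of Hnrnpf and 1.72% of those of Srsf1. They cover more in Srsf4 (43.0%) and Hnrnpab (29.1%), whose log2 ratios of 0.09 and -0.65 stayed within 2-fold. Srsf3, whose exons overlap no other gene in M21, also had fewer M4 counts, 1052, 1009 and 1016 beside 3108, 2891 and 3080 (log2 ratio -1.83). Overlaps in the M4 annotation were not examined, and the cause of the lower M4 values was not tested.

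The other 4 genes were closer to the 2-fold line or had few counts. Hnrnpul2 had 28, 26 and 28 M4 counts beside 132, 108 and 84.0 expected counts, and Hnrnpul1 239, 293 and 248 beside 747, 753 and 636. Hnrnpl had 543, 473 and 485 beside 920, 994 and 897, and Srsf10 852, 919 and 930.0 beside 1613, 1677 and 1720.0. The 2 members left out of the comparison were under 1 CPM of M4 counts in every library, where 2.81% of 10723 genes at 1 CPM of expected counts were. Hnrnpu had 0, 0 and 0 M4 counts beside 1390, 1253 and 1263 expected counts, and Hnrnpa0 had 0, 5 and 0 beside 245, 232 and 171. Both genes were therefore nearly without counts in the M4 table while above 10 TPM in the M21 gene table.

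**Figure D5:**
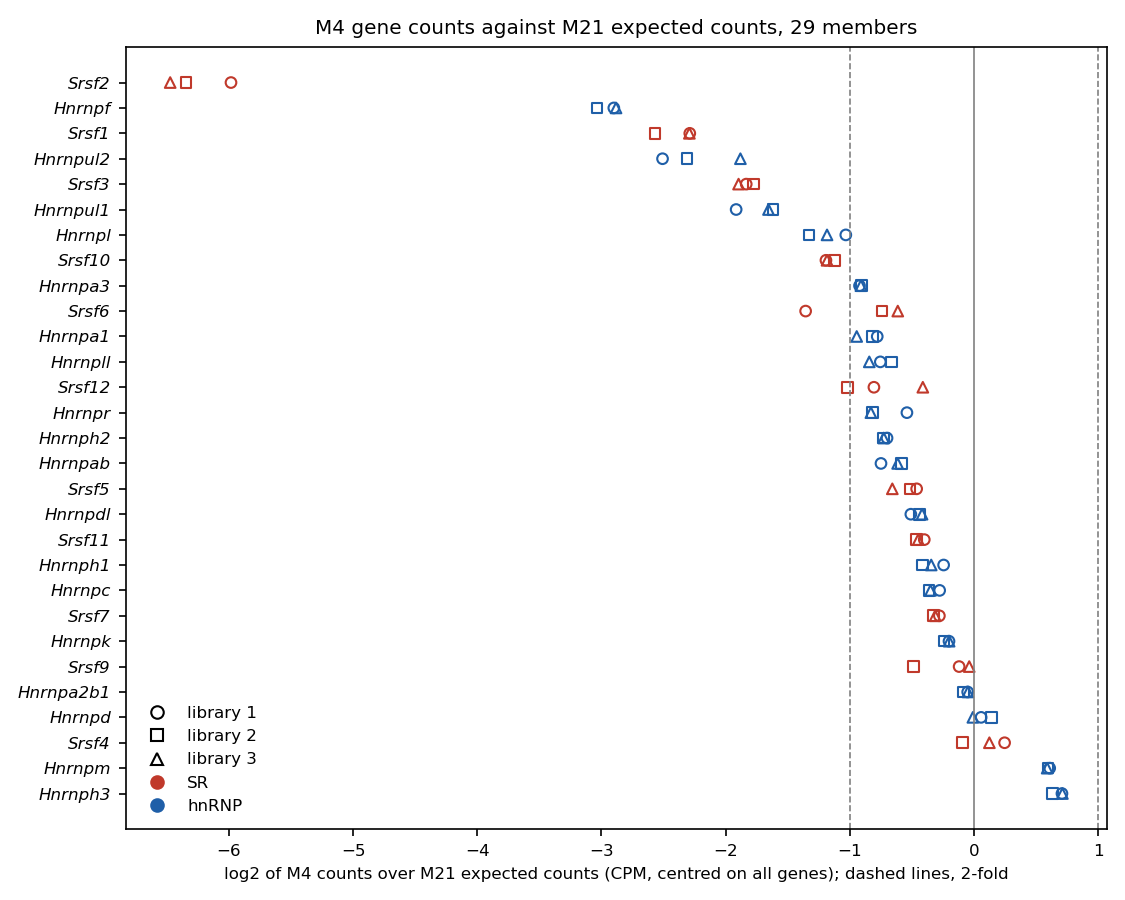
Log2 ratio of M4 counts to M21 expected counts (CPM, centred on all shared genes) for 29 members in libraries 1, 2 and 3 (circles, squares and triangles), with SR genes in red and hnRNP genes in blue. The ratios of Srsf2 lie near -6, those of Hnrnpf near -3, and 8 members lie left of the dashed line at 2-fold in every library.

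In the second transcript table, Hnrnpa3 had a summed TPM of 36.8, beside 138 in the gene table. Most members were lower there, where the pseudogene Gm29013 took 19.1 to 26.1% of its TPM, and rescaled over genes with a protein_coding transcript (an alternative chosen after seeing the data) Hnrnpa3 stood at 59.3 TPM. On that scale the 31 members had log2 ratios to the gene table from -1.22 in Hnrnpa3 and -0.43 in Srsf2, the next lowest, to 0.69 in Hnrnpl. Its most abundant transcript in the first table, Hnrnpa3-204, took 54.7% ± 4.28 of the TPM of the gene and was listed at 0% in the second.

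Other genes of the splicing and decay machinery were read from lists of named genes for context. For all the lists below, the shares to set beside the counts are those over all genes. Of all genes tested, 54.5% differed between libraries and 8.79% by 2-fold. The NMD class reached 10% in every library in 23.3% of 3114 detected genes with such a transcript. The lists are short, and no list was tested against these shares. Of 10 SR-related proteins, all were detected, 8 differed between libraries and 0 by 2-fold, with Tra2b highest at 347 ± 36.2 TPM and Sfswap lowest at 25.4 ± 3.56 TPM. The NMD class reached 10% in every library in 2 of the 8 that have such transcripts, Srek1 (25.1% ± 0.454) and Tra2b (15.6% ± 5.30). All 7 kinases and importer of SR proteins were detected and 3 differed between libraries. Clk1, which phosphorylates SR proteins, was the highest at 399 ± 89.8 TPM, and Clk2 the lowest at 12.2 ± 2.53 TPM. Within that list the NMD class reached 10% in 4 of 7 genes, with 66.1, 42.0 and 33.4% in Clk2, 24.7, 20.4 and 12.8% in Clk1, and means of 15.4% in Srpk2 and 13.6% in Clk3.

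Among 24 matched relatives of the hnRNP genes under other symbols, 23 were detected and 16 differed between libraries, where 54.5% of all genes tested did. Mbnl1 led at 414, 681 and 828 TPM, lowest in library 1 (ratio of scaled counts 1.61), and Rbfox2 was not detected at 0.51, 0 and 0.03 TPM. The NMD class reached 10% in 5 of 11 with such transcripts, Tardbp (44.6% ± 1.83), Rbmx (38.2% ± 4.85), Ptbp2 (21.2% ± 4.13), Khdrbs1 (13.8% ± 1.64) and Syncrip (13.1% ± 2.18). All 6 factors of splice site recognition were detected, from Sf3b1 at 393 ± 58.7 TPM to U2af2 at 17.7 ± 4.13 TPM, and 3 differed between libraries. Sf3b1 and U2af1l4 had NMD shares of 24.7% ± 7.30 and 30.04% ± 10.8, over 10% in every library, while U2af1 had 33.4, 44.6 and 7.27%.

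The 12 factors of nonsense-mediated decay itself were all detected, from Eif4a3, a core protein of the exon junction complex, at 175 ± 10.1 TPM to the helicase Upf1 at 8.48 ± 0.706 TPM. Of these 12, 10 differed between libraries and 0 by 2-fold, where 54.5 and 8.79% of all genes tested did. The largest ratio was 1.58 in Magoh. None of the 3 with an annotated NMD transcript reached 10% in that class, where 23.3% of all such genes did, and 3 genes are too few to compare with that share.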

How the data were processed

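The authors deposited, for each of 3 technical libraries of regulatory T cells, a gene table with expected counts, TPM and FPKM, and a transcript table with expected counts, TPM and each transcript's percent of the TPM of its gene, for GENCODE M21 on mm10, per the file headers and readmes. They also deposited a second M21 transcript table with estimated counts and TPM, and whole-number gene counts for GENCODE M4. No source used here gives the tools, their versions or the strand setting. Genes come from the M21 annotation.

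Members were matched by symbol. The members and lists were chosen with earlier results of these data known. All M21 mouse genes entered library totals, and other entries (0.117, 0.124 and 0.135% of counts) were left out. Expected counts were rounded for the spread test. Detection needed 1 TPM in every library. The chi-square test used genes with 30 counts and TMM-scaled totals (edgeR 4.0.16, R 4.3.3) with a Benjamini-Hochberg threshold of 0.05; it was tested on simulated data. A class share counted at 10% in every library. Values per library were given for the 6 SR and 8 hnRNP genes of highest TPM, the 6 with the highest NMD share, retained_intron share and ratio, members differing between gene tables, and Hnrnpll. Alternatives included DESeq2 1.42.0 size factors, posterior mean TPM, FPKM and each library left out. PCR copies cannot be told from separate molecules here, so tests cover counting error only. Python 3.11.15, pandas 2.3.3 and scipy 1.17.1 were used.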

Additional observations from a re-analysis of the deposited data

How the results depend on the processing

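All 31 members stayed detected with posterior mean TPM, FPKM or any library left out, and 28 did at 5 TPM. The summed TPM of SR genes was 1541 with posterior mean TPM and 981 in the second transcript table, and that of hnRNP genes 4463 and 2879. In that table the pseudogene Gm29013 took 26.1, 19.1 and 19.6% of the TPM, and after rescaling over genes with a protein_coding transcript, an alternative chosen after seeing the data, the sums were 1577 and 4627. The number of members differing between libraries ran from 7 to 17 with 1 library left out (7 without library 1) and from 19 to 24 under the other tables, scalings and filter. With expected counts in place of TPM 5 members reached 10% in the NMD class, and at a 20% mark 4 did, while 8 reached 20% in the retained_intron class. No shares over all genes are given for these alternatives. The median NMD share ran from 4.46 to 11.7% with 1 library left out. At 1.5-fold, 15 members differed between the gene tables, and without centring 6 did at 2-fold. Srsf6 did not pass in expected counts (scaled 356, 323 and 326, highest in library 1) but passed in M4 counts (166, 245 and 248, lowest in library 1; ratio 1.55, adjusted p = 0.0001 by the chi-square test). In estimated counts of the second table, 1 of 24 members that differed was highest in library 2, against 0 of 20 in expected counts. There Hnrnpul2 had a larger ratio than Hnrnpa3 (1.59 against 1.36), as it did with scaling within bins of gene length (1.88 against 1.53). In M4 counts Hnrnpul2 did not pass the chi-square test (ratio 1.18, adjusted p = 0.837). Hnrnpl, which did not pass in expected counts, passed the chi-square test in M4 counts (ratio 1.21, adjusted p = 0.0156). Srsf2 did so in estimated counts of the second table (ratio 1.06, adjusted p = 0.0327). No paired analysis was possible because all libraries form 1 group. Depth limits members such as Srsf4, Srsf9 and Srsf12, with under 100 expected counts a library.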
